A study of Drosophila melanogaster with 6 samples.

Results

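The miRNA genes mir-317, mir-277 and mir-34 lie on the same strand of chromosome arm 3R of *Drosophila melanogaster* and are taken here as 1 cluster. Their mature products are the 6 rows of the deposited count table whose precursor is dme-mir-317, dme-mir-277 or dme-mir-34, the 5p and the 3p arm of each hairpin, out of 474 rows for 256 precursors. All 6 were among the 150 rows that passed the filter on low counts. Small RNA was sequenced from ovaries of 7-day-old adult flies raised at 25 degrees, in 6 libraries, 2 of each of 3 genotypes. Controls were w1118, a laboratory strain with white eyes that is also the background named for both mutants. The wh7 flies were mutant for wuho, the gene of a WD40 protein with a role in germ cells, and the mei-p26 flies for mei-P26, a TRIM-NHL regulator of germ cell differentiation. The labels give no more on either allele, and nothing in them states that duplicates came from separate flies. The p-values therefore reflect the spread between libraries, part of which may be technical.

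A miRNA gene is transcribed as a longer primary transcript, from which a hairpin is cut, and usually 1 of the 2 arms of the hairpin is loaded into an Argonaute protein and pairs with messenger RNAs through its seed near the 5′ end. In the fly, miR-34 is known for its role in the ageing brain and for being deposited by the mother in the egg. miR-277 acts on metabolic genes, among them those that break down branched-chain amino acids, and miR-317 on the response of mated females to the male sex peptide. In fly cells the level of miR-34 falls under the steroid hormone ecdysone, while miRNAs of the let-7 complex rise.

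The annotation at hand (Ensembl, of a later genome release than the BDGP5 build in the submitters' processing notes, so that no coordinates are given) places the genes in the order mir-317, mir-277, mir-34 on the same strand. It also holds lncRNA:CR43459, whose RefSeq synonyms include pri-mir-277_mir-34. Of its 3 annotated transcripts, 2 span mir-277 and 1 of these also spans mir-34. None of the 3 spans mir-317. The genes thus share a strand, but no transcript of this lncRNA covers all of them.

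The libraries held 144175 to 249262 counts, so that 1 count stood for 4.01 to 6.94 CPM, the count scaled to a common library total. The share of all counts that fell on the cluster was 0.757% in w1118 replicate 1 (95% exact binomial interval 0.714% to 0.802%), 0.952% in w1118 replicate 2 (0.903% to 1.00%), 0.915% in wh7 replicate 1 (0.867% to 0.964%), 0.778% in wh7 replicate 2 (0.743% to 0.815%), 1.39% in mei-p26 replicate 1 (1.34% to 1.43%) and 1.64% in mei-p26 replicate 2 (1.59% to 1.69%). Both mei-p26 libraries lay above the other 4, and the wh7 libraries lay within the range of w1118. These intervals cover counting error only. The shares are of raw counts, so they also move when abundant miRNAs change. With total-count scaling, the median log2 fold change of all tested rows in mei-p26 against w1118 was 0.35. Its part in the share of the cluster was not tested. The replicates of w1118 and of mei-p26 differed from each other across miRNAs more widely than those of wh7 did, with a chi-square over its degrees of freedom of 47.1, 49.1 and 8.83, where sampling noise alone gives about 1. As a check of the tissue, the follicle cell miRNAs miR-318, miR-994 and miR-989 together made up 296727 to 332801 CPM in w1118 and wh7 and 156618 to 188899 CPM in mei-p26. The list taken for the germline, bantam and miR-184, summed to 57236 to 65941 CPM in w1118, 45853 to 53326 CPM in wh7 and 61441 to 62838 CPM in mei-p26. The wh7 libraries lay below the other 4. Its most abundant name in each genotype was bantam-3p. Of its 4 tested names, 0 were called in wh7 against w1118, where 15.3% of all tested rows were. In mei-p26, 1 was called higher, miR-184-5p (log2 fold change 1.26, edgeR adjusted p = 0.0350), where 21.3% of all tested rows were. Whether these miRNAs came from germ cells alone was not tested, so the sum does not measure germ cell content.

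In w1118 ovaries the cluster was represented mainly by miR-34-5p and miR-317-3p. Among 466 mature names, of which 208 had counts in w1118, miR-34-5p ranked 33rd by mean CPM and miR-317-3p 34th. Both arms of mir-277 ranked lower, miR-277-5p 74th and miR-277-3p 82nd. Levels of different miRNAs are compared here as read counts, and a ligation-based kit does not capture all sequences equally well. In wh7 the ranks were 31st for miR-34-5p and 42nd for miR-317-3p, and in mei-p26 they were 26th and 34th.

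**Figure D1:**
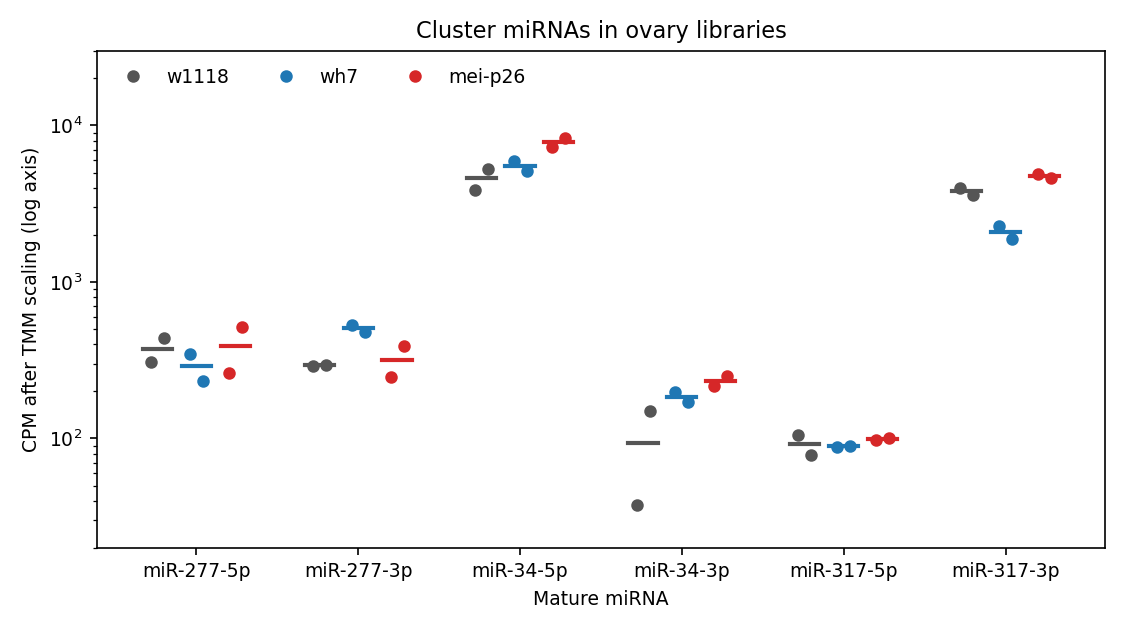
CPM after TMM scaling (log axis) of the 6 mature miRNAs in each of the 6 libraries, with points for libraries and lines for the means of 2. miR-317-3p is lowest in both wh7 libraries, at 2271 and 1867 CPM, and miR-34-5p is highest in both mei-p26 libraries, at 7301 and 8284 CPM.

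miR-317-3p, the abundant arm of mir-317, had 537 and 500 counts in the w1118 libraries, against 333 and 415 for wh7 and 1191 and 1327 for mei-p26. After TMM scaling, which sets the libraries against each other by the miRNAs that change least, these stood for 4008 and 3583 CPM in w1118, against 2271 and 1867 CPM for wh7 and 4874 and 4600 CPM for mei-p26. The wh7 libraries lay below all others and the mei-p26 libraries above all others, with no overlap between any 2 genotypes. In wh7, miR-317-3p fell to 2069 ± 286 CPM (SD, n = 2) against 3796 ± 301 CPM in w1118, with a log2 fold change of -0.88 ± 0.25 (SE; edgeR quasi-likelihood test, adjusted p = 0.0207), or 1.84-fold lower. It was the only 1 of the 6 arms to pass in this comparison, in which 15.3% of all tested rows passed in either direction and 4% as lower. For the same comparison the authors' deposited table gives a linear fold change of -1.73 with an adjusted p of 0.00504. Its minus sign marks a decrease, and it is a ratio of mean CPM before TMM scaling. The call was lost without w1118 replicate 1 (-0.69, edgeR adjusted p = 0.222), without wh7 replicate 1 (-1.12, 0.191), without wh7 replicate 2 (-0.70, 0.406), and with no filter on low counts (-0.89, 0.0504). Its direction held under all 17 alternatives. Sums over the lists of other cell types are given in CPM before TMM scaling. The muscle miRNA list was miR-1 and miR-133, with 4 mature names, 1 of them at 0. Only 2 names passed the filter and were tested, both of them arms of miR-1. The list summed to 10640 to 14779 CPM in w1118 and 22646 to 23466 CPM in wh7. The gut and Malpighian tubule list (miR-281, 3 mature names, none at 0 in either group) summed to 1852 to 2275 CPM in w1118 and 3859 to 4552 CPM in wh7, where miR-281-3p was called higher with a log2 fold change of 0.93 ± 0.28 (edgeR adjusted p = 0.0218). Of the muscle list, miR-1-3p was called higher in wh7 at 0.76 ± 0.25 (edgeR adjusted p = 0.0387), while miR-1-5p did not pass (0.40). The part of either list in the change of miR-317-3p was not tested. In bulk tissue, fewer cells that express a miRNA and fewer copies per cell cannot be told apart.

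In mei-p26, miR-317-3p was at 4737 ± 194 CPM, with a log2 fold change of 0.32 ± 0.25 against w1118 (edgeR adjusted p = 0.334, 95% interval -0.20 to 0.84). Its sign turned without w1118 replicate 2, at -0.06. Between the mutants, miR-317-3p was higher in mei-p26 than in wh7 by 1.20 ± 0.25 on the log2 scale (edgeR adjusted p = 0.000641), or 2.29-fold. It was the 1 arm of 6 that passed between the mutants, where 27.3% of tested rows passed in either direction and 12.7% as higher. The call was lost without wh7 replicate 2 (1.02, edgeR adjusted p = 0.0760) and held under the other 16 alternatives. This comparison shares its wh7 libraries with that of wh7 against w1118, so the low wh7 values enter both.

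The other arm, miR-317-5p, had 14 and 11 counts in the w1118 libraries, against 13 and 20 for wh7 and 24 and 29 for mei-p26. Its scaled level stayed between 78.8 and 105 CPM over the 6 libraries, and those of w1118 enclosed those of both mutants. The log2 fold change was -0.03 ± 0.56 in wh7 (edgeR adjusted p = 0.983) and 0.12 ± 0.54 in mei-p26 (adjusted p = 0.888). With so few counts the 95% interval in wh7 ran from -1.20 to 1.14, which holds the change seen in the 3p arm.

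miR-34-5p, the abundant arm of mir-34 and the one with the family's seed, had 521 and 739 counts in the w1118 libraries, against 864 and 1143 for wh7 and 1784 and 2390 for mei-p26. The scaled levels were 3889 and 5296 CPM in w1118, against 5894 and 5143 CPM for wh7 and 7301 and 8284 CPM for mei-p26. Both mei-p26 libraries lay above the other 4, while the ranges of w1118 and wh7 overlapped. In mei-p26, miR-34-5p rose to 7793 ± 695 CPM against 4592 ± 995 CPM in w1118, with a log2 fold change of 0.76 ± 0.24 (edgeR adjusted p = 0.0207), or 1.70-fold. It was the 1 arm of 6 that passed in this comparison, in which 34% of all tested rows passed in either direction and 21.3% as higher. The authors' deposited table gives a linear fold change of 2.04, a ratio of mean CPM before TMM scaling, with an adjusted p of 0.0980. The call was lost under 8 of 17 alternatives. They were upper-quartile scaling (0.55, edgeR adjusted p = 0.109), no filter on low counts (0.74, 0.0600), a fit of only the groups compared (0.76, 0.0664), and the fits without w1118 replicate 1 (0.55, 0.266), w1118 replicate 2 (0.71, 0.0556), wh7 replicate 1 (0.56, 0.201), wh7 replicate 2 (0.76, 0.0646) or mei-p26 replicate 2 (0.65, 0.122). The direction was higher in each of them. Before TMM scaling, the muscle list summed to 24085 to 31954 CPM in mei-p26 against 10640 to 14779 CPM in w1118. The gut and Malpighian tubule list, with 1 of 3 names at 0 in mei-p26, summed to 253 to 357 CPM against 1852 to 2275 CPM, also before scaling. Of the follicle cell list, 3 of 5 tested names were called lower in mei-p26, where 12.7% of all tested rows were. They were miR-318-3p at a log2 fold change of -2.47, miR-994-5p at -2.40 and miR-994-3p at -2.94. The most abundant of the list in w1118, miR-989-3p, did not pass (-0.40, edgeR adjusted p = 0.189). Its partner arm miR-989-5p went the other way and did not pass (1.20, edgeR adjusted p = 0.157). Of the muscle list, miR-1-3p was called higher in mei-p26 at 0.85 ± 0.25 (edgeR adjusted p = 0.0107), while miR-1-5p did not pass (1.38). The part of these lists in the result for miR-34-5p was not tested. The nervous system list (miR-124, miR-137, miR-210 and miR-219), a tissue in which miR-34 and miR-277 have known roles, had at most 8 counts in any library, with 7 of its 8 mature names at 0 in w1118, against 6 for wh7 and 5 for mei-p26.

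In wh7, miR-34-5p was at 5518 ± 530 CPM (log2 fold change 0.26 ± 0.24 against w1118, edgeR adjusted p = 0.536, 95% interval -0.25 to 0.78). Between the mutants it differed by 0.50 ± 0.24, higher in mei-p26, which did not pass (edgeR adjusted p = 0.153, 95% interval -0.01 to 1.01). The order of the mean levels was therefore w1118, wh7, mei-p26, in which neither step between neighbours passed the test.

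The passenger arm miR-34-3p had 5 and 21 counts in the w1118 libraries, against 29 and 38 for wh7 and 53 and 72 for mei-p26. Its scaled level was 37.3 and 150 CPM in w1118, against 198 and 171 CPM for wh7 and 217 and 250 CPM for mei-p26. The genotypes did not overlap and stood in the same order as for miR-34-5p, but the w1118 libraries stood far apart. For these 2 libraries the exact binomial intervals of the unscaled level, 10.6 to 76.3 CPM and 90.2 to 223 CPM, did not overlap. The log2 fold change was 0.95 ± 0.57 in wh7 (edgeR adjusted p = 0.282) and 1.30 ± 0.55 in mei-p26 (adjusted p = 0.0776), and 0.35 ± 0.50 between the mutants (adjusted p = 0.689). In mei-p26 it passed with no filter on low counts (1.28, adjusted p = 0.0484) and without w1118 replicate 2 (2.34, adjusted p = 0.0283), and was at 0.62 (adjusted p = 0.472) without w1118 replicate 1. In wh7 the value was 2.10 (adjusted p = 0.0735) without w1118 replicate 2 and 0.40 (adjusted p = 0.752) without w1118 replicate 1.

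miR-277-3p, the arm known to act on metabolic genes, had 39 and 41 counts in the w1118 libraries, against 78 and 107 for wh7 and 60 and 113 for mei-p26. After scaling these were 291 and 294 CPM in w1118, against 532 and 481 CPM for wh7 and 246 and 392 CPM for mei-p26. The wh7 libraries lay above all others, and the mei-p26 libraries lay on either side of w1118. The log2 fold change in wh7 was 0.79 ± 0.40 and did not pass (edgeR adjusted p = 0.197, unadjusted p = 0.0617, 95% interval -0.04 to 1.62). It was 0.13 ± 0.40 in mei-p26 (adjusted p = 0.842), with a sign that turned under upper-quartile scaling (-0.10) and when w1118 replicate 2, the first of wh7 or the second of mei-p26 was left out. Between the mutants it was -0.66 ± 0.38 (adjusted p = 0.237).

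Its partner arm miR-277-5p had 41 and 61 counts in the w1118 libraries, against 51 and 52 for wh7 and 64 and 149 for mei-p26. The scaled levels were 306 and 437 CPM in w1118, against 348 and 234 CPM for wh7 and 262 and 516 CPM for mei-p26. The 3 genotypes overlapped, and the 2 mei-p26 libraries alone spanned nearly the whole range. The log2 fold change was -0.37 ± 0.44 in wh7 (edgeR adjusted p = 0.626) and 0.07 ± 0.43 in mei-p26 (adjusted p = 0.907), where the sign turned with RLE scaling (-0.02).

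**Figure D2:**
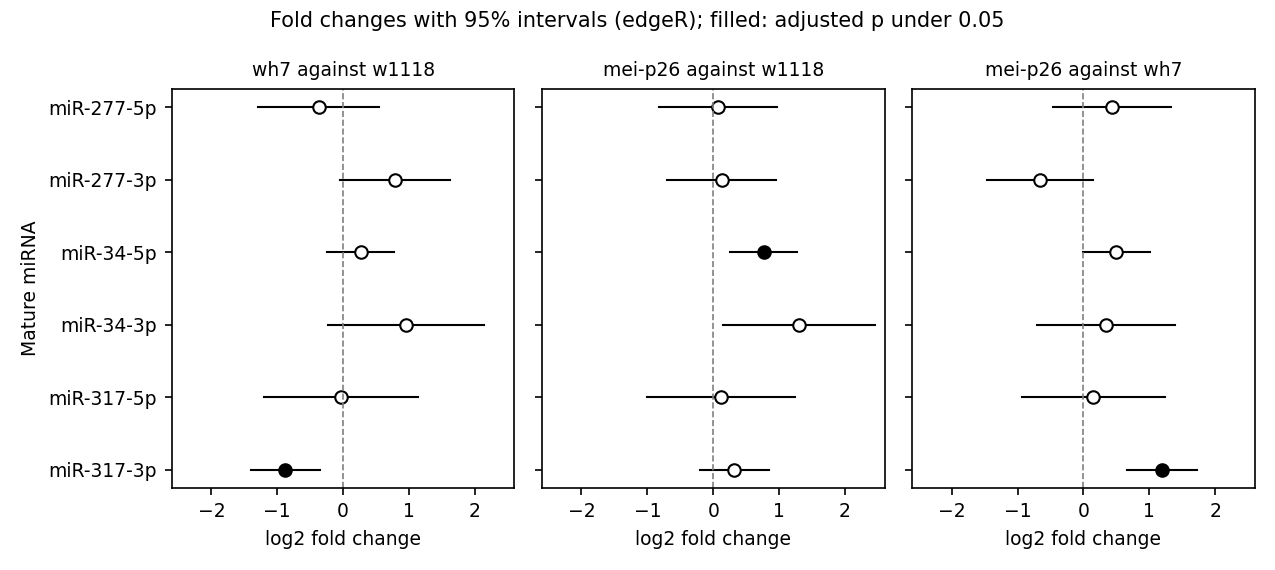
Log2 fold changes of the 6 arms in each comparison with 95% intervals from the edgeR fit of all 6 libraries; filled points passed at an adjusted p under 0.05. miR-317-3p passes at -0.88 in wh7 and at 1.20 between the mutants, and miR-34-5p at 0.76 in mei-p26.

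Taken by counts, 1 of 6 arms was lower and 0 higher in wh7, 1 higher and 0 lower in mei-p26, and 1 higher and 0 lower in mei-p26 against wh7. DESeq2 and limma-voom gave these same counts, and edgeR at an unadjusted p under 0.05 gave 2 higher in mei-p26 and left the others as they were. The median log2 fold change of the 6 arms was 0.12, 0.22 and 0.39 in these comparisons, beside 0.08, 0.08 and 0.13 over all 150 tested rows. Of all rows, 11.3% were called higher and 4% lower in wh7, 21.3% and 12.7% in mei-p26, and 12.7% and 14.7% in mei-p26 against wh7, beside 1 of 6 arms in each comparison. As a share, 1 of 6 lies above the 4% for lower calls in wh7, but it rests there on 1 arm. It lies near the share for either direction in wh7 and for higher calls in the other two comparisons, and below the share for either direction in those. The libraries of wh7 and w1118 did not overlap for 2 arms that were higher and 1 that was lower in wh7, while over all rows 34% were higher and 25.3% lower without overlap. For mei-p26 against w1118 the same held for 3 higher arms and 0 lower ones, against 36% and 29.3% of all rows, and for mei-p26 against wh7 for 4 higher arms and 1 lower, against 33.3% and 28%.

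**Figure D3:**
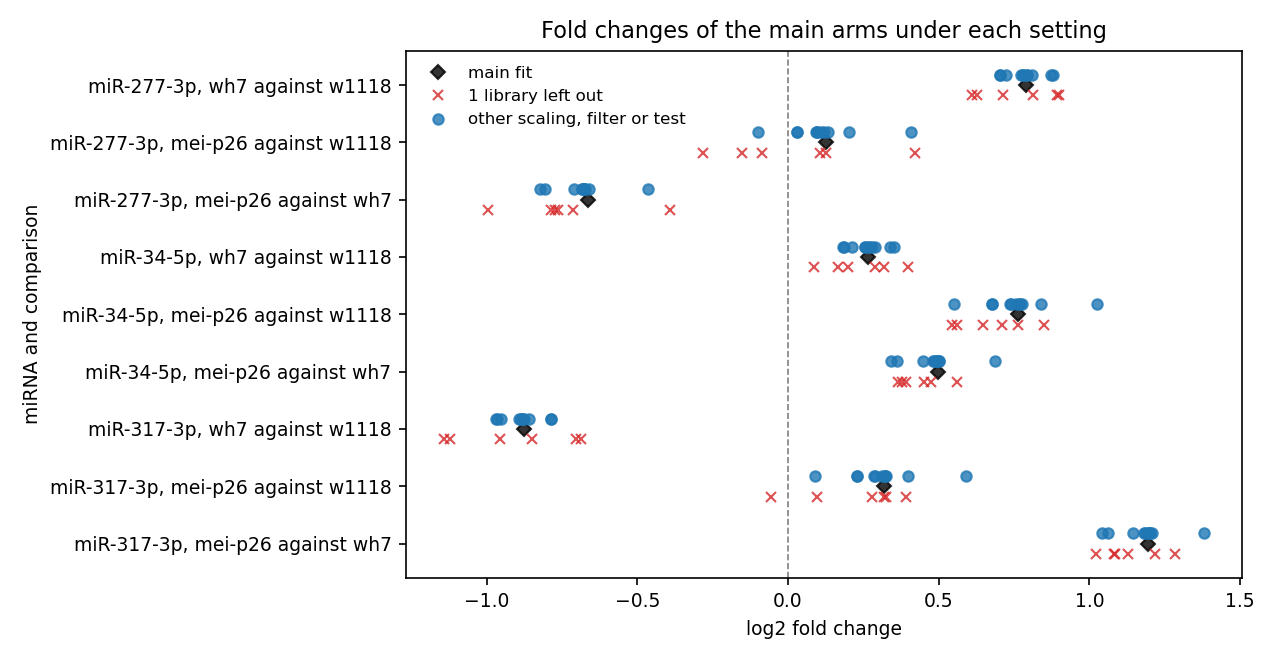
Log2 fold changes of the main arms under the main fit, with 1 library left out, and under other scalings, filters or tests. miR-317-3p stays below 0 in wh7, between -1.14 and -0.69, and miR-34-5p stays above 0 in mei-p26, between 0.55 and 1.03.

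Ratios within a library do not depend on how libraries are scaled to each other. The ratio of miR-34-5p to miR-317-3p counts was 0.970 and 1.48 in w1118, against 2.59 and 2.75 for wh7 and 1.50 and 1.80 for mei-p26, with 1 added to each count. The wh7 libraries stood above all others, and mei-p26 above w1118 by a narrow margin. The log2 ratio was higher in wh7 than in w1118 by 1.16 ± 0.36 (limma, adjusted p = 0.0250), a 2.23-fold shift of the balance toward miR-34-5p. All ratios to miR-317-3p carry its own change, and 47% of 149 of them passed in this comparison. The call was lost without w1118 replicate 1 (0.85, limma adjusted p = 0.129), or without wh7 replicate 1 (1.20, 0.0973) or wh7 replicate 2 (1.11, 0.148). In mei-p26 the difference from w1118 was 0.46 ± 0.36 (adjusted p = 0.354, 95% interval -0.35 to 1.26), where 29.5% of ratios passed, and between the mutants -0.70 ± 0.36 (adjusted p = 0.103).

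The ratio of miR-277-3p to miR-317-3p was 0.0743 and 0.0838 in w1118, against 0.237 and 0.260 for wh7 and 0.0512 and 0.0858 for mei-p26. Both wh7 libraries lay well above the other 4. The log2 ratio was higher in wh7 than in w1118 by 1.65 ± 0.37 (limma, adjusted p = 0.00628), or 3.14-fold, and lower in mei-p26 than in wh7 by -1.90 ± 0.37 (adjusted p = 0.00195), or 3.74-fold. Of the ratios to miR-317-3p, 67.1% passed between the mutants in either direction. The call against w1118 was lost without wh7 replicate 1 (1.72, adjusted p = 0.0520) or wh7 replicate 2 (1.58, 0.0806), and the call between the mutants held under all 9 alternatives. In mei-p26 the difference from w1118 was -0.25 ± 0.37 (adjusted p = 0.614). miR-277-3p was taken as the main arm by 438 counts against 418 for miR-277-5p. It had more counts than the 5p arm only in the wh7 libraries. The ratios that use miR-277-3p thus rest on an arm whose choice turned on its high wh7 counts. Their wh7 values are not independent of that choice, and all 9 alternatives kept the same arm. No ratio of miR-277-5p to another hairpin is given here. miR-277-5p had a log2 fold change of -0.37 in wh7 and did not pass.

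The ratio of miR-34-5p to miR-277-3p, the pair that share 1 annotated primary transcript, was 13.1 and 17.6 in w1118, against 10.9 and 10.6 for wh7 and 29.26 and 20.97 for mei-p26. The genotypes did not overlap. The log2 difference was -0.49 ± 0.50 in wh7 (limma adjusted p = 0.434, 95% interval -1.48 to 0.49) and 0.71 ± 0.50 in mei-p26 (adjusted p = 0.339, 95% interval -0.27 to 1.69). Between the mutants it was 1.20 ± 0.50, higher in mei-p26 (adjusted p = 0.0451), in a fit where 37.6% of 149 ratios to miR-277-3p passed in either direction. The shares were 26.2% in wh7 and 31.5% in mei-p26 against w1118. That call was lost under 7 of 9 alternatives, with a pseudocount of 0.5 (1.20, adjusted p = 0.0541), with the replicate block (1.20, 0.0572), and without w1118 replicate 1 (1.20, 0.0543), w1118 replicate 2 (1.20, 0.0543), wh7 replicate 1 (1.23, 0.197), wh7 replicate 2 (1.18, 0.225) or mei-p26 replicate 1 (0.96, 0.101). By share of the cluster's counts, mir-317 made up 47.6% and 37.2% in w1118, against 25.3% and 24.5% for wh7 and 38.3% and 33.2% for mei-p26. The share of mir-34 was 45.5% and 55.4% in w1118, against 65.3% and 66.5% for wh7 and 57.8% and 60.3% for mei-p26. mir-277 held 3.90% to 9.43% of the cluster, most in wh7.

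**Figure D4:**
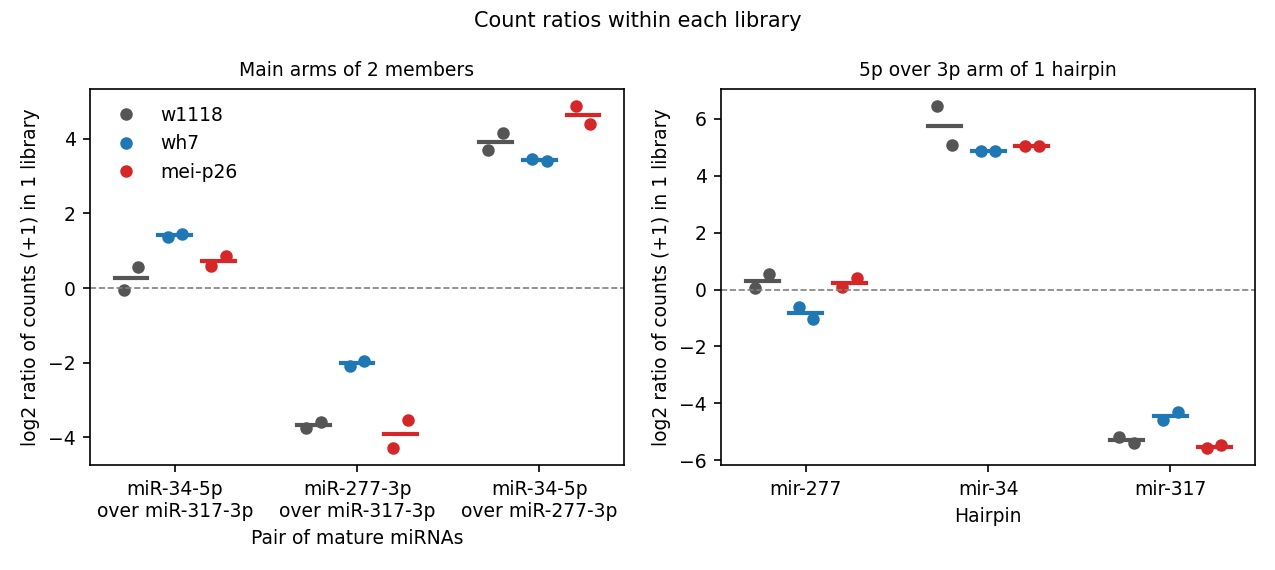
Log2 ratios of counts within each library, with 1 added to each count; points are libraries and lines the means of 2. On the left, both ratios to miR-317-3p are highest in the wh7 libraries, at 2.59 and 2.75 for miR-34-5p and at 0.237 and 0.260 for miR-277-3p on the linear scale. On the right, the arms of mir-277 are near even and those of mir-34 and mir-317 far from it.

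The hairpins differed in how evenly their arms were found. Over all libraries mir-277 gave 418 counts of its 5p arm and 438 of its 3p arm, or 48.8% from the 5p arm. By evenness it ranked second of the 50 precursors whose arms both averaged 10 or more counts. The 5p arm made up 97.2% of the counts of mir-34, which ranked 31st, and 2.51% of those of mir-317, which ranked 32nd.

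The share of the 5p arm of mir-277 was 51.2% and 59.8% in w1118, against 39.5% and 32.7% for wh7 and 51.6% and 56.9% for mei-p26. The wh7 libraries were the only 2 of the 6 in which the 3p arm had more counts. The exact binomial intervals were wide, 39.8% to 62.6% and 49.6% to 69.4% in w1118, against 31.0% to 48.5% and 25.5% to 40.6% for wh7. That of w1118 replicate 1 overlapped both of wh7, and that of w1118 replicate 2 overlapped neither. The log2 ratio of the 5p to the 3p arm was lower in wh7 than in w1118 by -1.13 ± 0.36, which did not pass (limma adjusted p = 0.186, unadjusted p = 0.0167). For arm ratios 2% of the 50 precursors passed in wh7, 2% in mei-p26, and 0% between the mutants with limma. At an unadjusted p under 0.05 the counts were 11, 8 and 5 of 50. The 5p share of mir-317 was 2.54% and 2.15% in w1118, against 3.76% and 4.60% for wh7 and 1.98% and 2.14% for mei-p26, again with wh7 apart from the others. Its exact binomial intervals were 1.40% to 4.23% and 1.08% to 3.82% in w1118. They overlapped those for wh7, 2.02% to 6.34% and 2.83% to 7.01%. Its log2 arm ratio was higher in wh7 by 0.83 ± 0.31 (adjusted p = 0.190), and lower in mei-p26 than in wh7 by -1.08 ± 0.31 (adjusted p = 0.322). The 5p share of mir-34 was 99.0% in w1118 replicate 1 and 96.8% to 97.2% in the other 5 libraries. Its log2 arm ratio was lower than in w1118 by -0.90 ± 0.48 in wh7 (adjusted p = 0.332) and by -0.72 ± 0.48 in mei-p26 (adjusted p = 0.376). Without w1118 replicate 2, which leaves the library with 5 counts of miR-34-3p as the only control, these became -1.58 (adjusted p = 0.0323) and -1.40 (adjusted p = 0.0485). No arm ratio of the cluster passed in the limma fit of all 6 libraries, with 2 of 3 at an unadjusted p under 0.05 in wh7, 0 in mei-p26 and 2 between the mutants.

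Among fly miRNAs known to respond to ecdysone (let-7, miR-100, miR-125, miR-34, miR-8 and miR-14), 11 of 12 mature names were tested. In mei-p26, 2 of these 11 were higher than in w1118 and 0 lower, namely miR-34-5p and miR-125-5p, a member of the let-7 complex, which had a log2 fold change of 0.76 ± 0.29 (edgeR adjusted p = 0.0446). Over all tested rows, 21.3% were called higher and 12.7% lower in this comparison. let-7-5p, from the same primary transcript as miR-125, had -0.32 ± 0.22 (adjusted p = 0.286). With DESeq2, 1 of the 11 was higher. At an unadjusted edgeR p under 0.05, 3 of the 11 were higher and 1 lower in mei-p26 than in w1118. miR-8-3p was at -0.54 ± 0.23 (edgeR adjusted p = 0.0776). In wh7, 0 of the 11 passed with edgeR, DESeq2 or limma-voom, against 15.3% of all rows with edgeR, and 1 had an unadjusted edgeR p under 0.05. In mei-p26 against wh7, 0 of 11 passed with any of the 3 tools, against 27.3% of all rows with edgeR, and 1 had an unadjusted edgeR p under 0.05. The median log2 fold change of the list was 0.06 in wh7, 0.10 in mei-p26 and 0.04 between the mutants. The list holds both miR-34, which falls under ecdysone, and the let-7 complex, which rises. Its median and its counts of higher and lower names therefore do not measure a response to the hormone.

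Across the 6 libraries, likeness was measured as the root mean square difference in centred log2 CPM to 85 other mature miRNAs that averaged 50 or more counts. The profile of miR-34-5p was nearest to those of miR-13b-2-5p, miR-11-5p and miR-125-5p, at 0.17, 0.18 and 0.18, where the median of the 85 was 0.49. That of miR-317-3p was nearest to miR-307a-3p at 0.26, then miR-2a-1-5p at 0.34 and miR-2a-2-5p at 0.35, with a median of 0.63. miR-307a-3p had a log2 fold change of -0.54 ± 0.33 in wh7 and 1.19 ± 0.33 between the mutants. That of miR-277-3p was nearest to miR-278-3p at 0.21, miR-8-5p at 0.27 and miR-998-3p at 0.30, with a median of 0.55. Between members the distance was 0.51 for miR-34-5p and miR-317-3p, 0.52 for miR-34-5p and miR-277-3p, and 0.87 for miR-277-3p and miR-317-3p. Set among the 85, miR-34-5p would rank 25th from miR-317-3p and 38th from miR-277-3p, both nearer than the median. From miR-34-5p the other two main arms would each rank 48th, and miR-277-3p and miR-317-3p would rank 67th and 71st from one another, all farther than the median. These distances describe the 6 libraries and share their depth and scaling.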

How the data were processed

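MicroRNA libraries came from the QIAseq miRNA kit, whose cDNA synthesis assigns unique molecular identifiers (UMIs), per the labels' protocols. The submitters' processing notes name bcl2fastq 2.20, Trimmomatic and BDGP5. The aligner, the counter, the miRNA annotation and any collapsing of UMIs were not given in the sources used here, so PCR copies may be counted. The deposited table held raw read counts per mature miRNA and precursor, per the file headers, in 6 library columns, and those headed W118 were taken as w1118. Deposited CPM values matched the counts divided by their column totals to within 0.00500 and were not tested. The p-values in the authors' deposited table come from a test they do not name there, and are quoted as theirs. The fold changes quoted from it are linear and match ratios of group mean CPM before TMM scaling, with a minus sign for a decrease. No member shares its mature name with another row.

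Counts were compared by quasi-likelihood in edgeR 4.0.16 under R 4.3.3, with TMM factors of 0.877 to 1.16 on full library totals and all 6 libraries in 1 fit. The filter was filterByExpr (minimum count 10), which kept 150 of 474 rows. Of the 474, 188 had no count. Benjamini-Hochberg adjustment ran over all tested rows (threshold 0.05). The SE is approximate, the size of the log2 change divided by the root of the F statistic. Ratios were log2 of counts plus 1, tested with limma 3.58.1 over all precursors whose arms both averaged 10 or more counts, or over all tested rows against miR-317-3p or miR-277-3p. The main arm of a hairpin is the arm with more counts in all. On simulated data for mei-p26 against w1118 with 150 rows, edgeR recovered 89.3% of 4-fold and 40.1% of 2-fold changes, with 8.38% and 5.95% of calls false. On the same data, limma on ratios to the most abundant miRNA recovered 77.4% of 4-fold and 11.1% of 2-fold changes. The ratios reported here divide by less abundant miRNAs, so these rates do not measure how well changes in them are recovered. A ratio that did not pass can still hide a 2-fold change.

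Results for single arms were recomputed with other scalings (RLE, total count, upper quartile), other filters (none, or a mean of 50 counts), DESeq2 1.42.0, limma-voom, the replicate number as a block, the compared groups alone, 5 of the 6 libraries, and counts of arms also at a threshold of 0.1. Ratios were recomputed with a pseudocount of 0.5, a mean of 50 counts, the replicate block and 5 of the 6 libraries. Added after seeing the data were 1 row per mature miRNA, scaling without the 10 most abundant miRNAs and a crossed block. The members, lists and tests were chosen with earlier results of these data known. All 6 arms are named, with the 3 miRNAs most like each main arm. From their list, miR-125-5p, let-7-5p and miR-8-3p were picked after their values were seen.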

Additional observations from a re-analysis of the deposited data

Results flagged for a closer look

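The changes of miR-317-3p against w1118 differed between the mutants by the direct test of mei-p26 against wh7, with a log2 fold change of 1.20. The within-library ratios of miR-277-3p to miR-317-3p and of miR-34-5p to miR-277-3p also differed between the mutants, with log2 differences of -1.90 and 1.20. The first 2 of these share the low miR-317-3p counts of the wh7 libraries. The third was lost under most alternatives, as given above. Both ratios use miR-277-3p, which was the main arm only through its wh7 counts, so their wh7 values are not independent of that choice.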

How the results depend on the processing

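With 2 libraries a group, each of the 3 calls of single arms was lost without at least 1 library, in 3 of 6 such fits for miR-317-3p in wh7, 5 of 6 for miR-34-5p in mei-p26 and 1 of 6 for miR-317-3p between the mutants, and arms with few counts could not be judged finely: 1 count stood for up to 6.94 CPM. Upper-quartile scaling moved the median log2 fold change of all rows in mei-p26 against w1118 from 0.08 to -0.14, and total-count scaling to 0.35. Where a value below turned sign or lost its call, the cause was not tested.

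In mei-p26 against w1118, upper-quartile scaling gave miR-34-5p at 0.55 with its call lost, so that 0 arms passed, and turned miR-277-3p to -0.10, miR-277-5p to -0.15 and miR-317-5p to -0.11. It also turned miR-317-5p to -0.00290 between the mutants. miR-277-5p turned to -0.0248 with RLE scaling and to -0.0260 with DESeq2. miR-317-5p in wh7 turned to 0.0553 with total-count scaling and to 0.0563 with scaling without the 10 most abundant miRNAs. No filter on low counts ended the calls of miR-317-3p in wh7 (-0.89), which left 0 arms, and of miR-34-5p in mei-p26 (0.74), where miR-34-3p passed in its place. The fit of only the groups compared gave miR-34-5p at 0.76 and 0 arms in mei-p26 against w1118, where a threshold of 0.1 gave 2 arms. With a mean count of at least 50, miR-34-3p and miR-317-5p, and the arm ratios of mir-34 and mir-317, were not tested.

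Leaving out each library in turn, the log2 fold change in wh7 ran from -1.14 to -0.69 for miR-317-3p, -0.41 to 0.29 for miR-317-5p, -0.74 to -0.0580 for miR-277-5p, 0.40 to 2.10 for miR-34-3p and 0.0851 to 0.40 for miR-34-5p. In mei-p26 against w1118 it ran from -0.28 to 0.42 for miR-277-3p, -0.53 to 0.47 for miR-277-5p, -0.0556 to 0.39 for miR-317-3p, -0.36 to 0.32 for miR-317-5p, 0.62 to 2.34 for miR-34-3p and 0.55 to 0.85 for miR-34-5p. Between the mutants it ran from -0.99 to -0.39 for miR-277-3p, -0.0893 to 0.82 for miR-277-5p, 0.20 to 0.42 for miR-34-3p and from 1.02 to 1.28 for miR-317-3p. The number of arms past the threshold ran from 0 to 1 in each comparison. The arm ratio ran from -0.32 to 0.17 for mir-277 in mei-p26, and for mir-34 from -1.58 to -0.21 in wh7 and -1.40 to -0.0318 in mei-p26. The ratio of miR-34-5p to miR-317-3p ran from 0.85 to 1.46 in wh7 and 0.15 to 0.76 in mei-p26 against w1118. That of miR-277-3p to miR-317-3p ran from 1.56 to 1.74 in wh7 and -0.63 to 0.12 in mei-p26 against w1118. That of miR-34-5p to miR-277-3p ran from -0.71 to -0.28 in wh7, 0.47 to 0.95 in mei-p26 against w1118 and 0.96 to 1.44 between the mutants. A lone control or mutant library was taken to vary like the other groups.

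The labels do not say that a replicate number marks a shared batch. Deviations from the group means of same-numbered libraries correlated across 150 rows at -0.33 between w1118 and wh7, -0.02 between w1118 and mei-p26 and 0.09 between wh7 and mei-p26. With the replicate block 1 arm passed in each comparison, 26, 50 and 41 rows passed against 23, 51 and 41, and the ratio of miR-34-5p to miR-277-3p between the mutants stayed at 1.20 but lost its call. A pseudocount of 0.5 gave 1.20 for the same ratio and also lost it. With w1118 replicate 1 crossed to wh7 replicate 2, in a fit of only those groups, 31 of 132 rows and 1 arm passed in wh7, where the fit of those groups with no block also gave 31 rows.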
